A study of Mus musculus with 5 samples.

Results

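The 10 genes described here, *Zeb1*, *Zeb2*, *Sec23a*, *Cfl2*, *Msn*, *Wasf3*, *Jag1*, *Ets1*, *Bmi1* and *Suz12*, have each been reported as targets of miR-200 in other cell types. They were chosen by name from that earlier literature, with earlier results of these data known, and all 10 were found among the 21835 genes of the deposited expression table. The RNA sequencing compared murine lung cancer-associated fibroblasts (CAFs) that carried an empty lentiviral vector (CAF-vec, 2 samples, genotype label WT control) with CAFs transduced with the miR-200b/a/429 cluster in the pLVX-Neo lentiviral vector (CAF-200, 3 samples, genotype label miR-200 overexpression). Both were grown in alpha-MEM with serum, and the transduced cells were selected with G418 for over 2 weeks. The vector and drug are as the labels name them, while the paper's methods name a pLVX-Hyg vector. Expression is given in CPM as deposited, values that the authors had put on a common library total. Whole reads could not be recovered from them, and the sequencing depth behind each value is unknown. The labels do not say that the samples came from separate cultures or transductions, so *p* values measure the spread between these samples, which may be technical, and the transduced population and miR-200 itself cannot be told apart. In bulk RNA, fewer cells of a type and less RNA per cell cannot be told apart either.

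The miR-200 family consists of small RNAs that pair through the seed near their 5′ end with sites in the 3′-UTR of an mRNA and lower its stability or its translation. It is best known in epithelial cells, where it represses the transcription factors ZEB1 and ZEB2, which in turn repress the miR-200 loci and epithelial genes such as *Cdh1*, and so it restrains epithelial-mesenchymal transition (EMT). mRNA sequencing reads the loss of target mRNA and does not read a block of translation, and mature miRNAs are not captured in such libraries. The levels of the 3 overexpressed miRNAs were therefore not analysed here.

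The sequences below are those of the 3 mature miRNAs of the transduced cluster, which show the seeds the target sites must match. They are the RefSeq entries on GRCm38.p6, and all 3 lie on the minus strand of chromosome 4, at chr4:156055685-156055706, chr4:156053916-156053937 and chr4:156054911-156054932 in the order given. Bases 2 to 8, the seed, are in capitals.
mmu-miR-200b-3p: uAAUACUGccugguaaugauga
mmu-miR-429-3p: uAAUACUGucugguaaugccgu
mmu-miR-200a-3p: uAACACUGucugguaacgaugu
miR-200b and miR-429 share a seed, whose 7-base match in a 3′-UTR is CAGTATT, and the match to miR-200a is CAGTGTT, so the classes do not overlap. Searched on the transcript strand of the longest annotated 3′-UTR (GENCODE M21, GRCm38), 9 of the 10 genes held CAGTATT and 4 of them also held CAGTGTT, 35 matches in all. Among the 12055 tested genes with an annotated 3′-UTR, 15.7% held CAGTATT, 20.8% held CAGTGTT and 30.3% held either. The 10 genes had longer 3′-UTRs, with a median of 2228 bases against 1174, and also more matches per kilobase, 1.37 against 0.281. Genes are commonly reported as targets because they hold such sites, so this frequency is a description and not a result. *Zeb1* and *Zeb2* each held 9 matches, 5 of the first class and 4 of the second, *Sec23a*, *Wasf3* and *Ets1* held 3, *Cfl2* held 3 across both classes, *Msn* and *Suz12* held 2, and *Bmi1* held 1. *Jag1* held neither in its 1568-base 3′-UTR, which says only that these letters are not in that window.

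**Figure D1:**
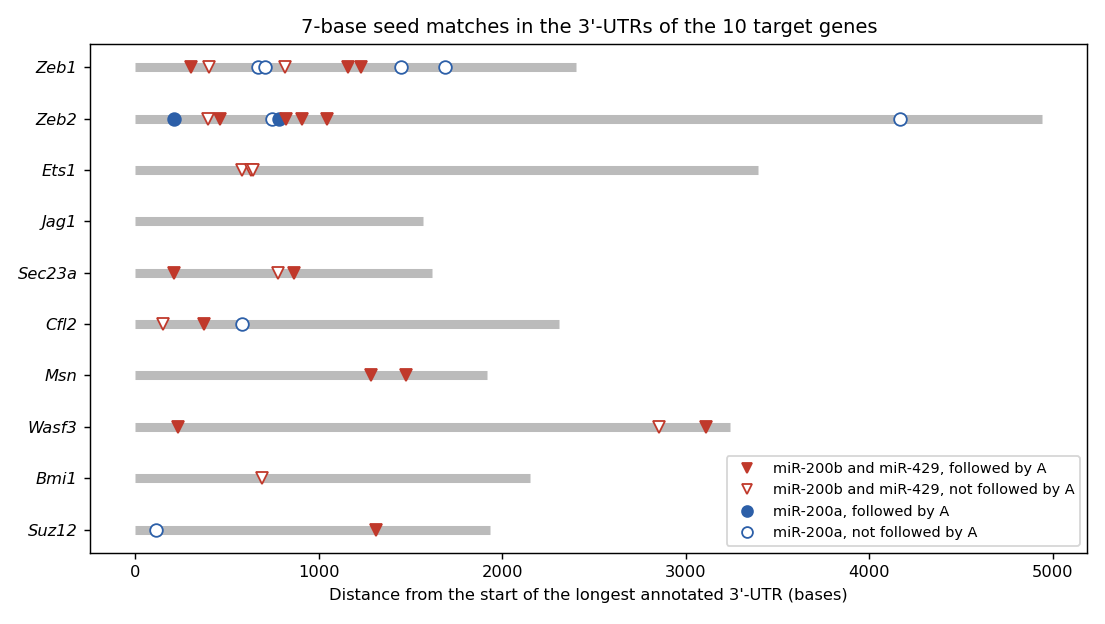
Map of the 7-base matches along the longest annotated 3′-UTR of each gene, drawn as a grey bar to scale in bases from its start. Triangles mark matches to miR-200b and miR-429, circles mark matches to miR-200a, and filled symbols are followed by A. *Zeb1* and *Zeb2* hold 9 matches each, *Jag1* holds 0, and the 3 matches of *Ets1* lie close together.

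The windows below are the matches of the genes whose mRNA changed in either direction and of *Ets1*, whose fold-change was near 0 as deposited, so that the sites can be set against the values. Each is written 5′ to 3′ on the transcript strand in DNA letters, with 14 bases before the match, the match in capitals and 1 base after it, which is the length of the miRNA. *Sec23a*, *Cfl2* and *Zeb2* are on the minus strand and *Msn*, *Suz12* and *Ets1* on the plus strand of GRCm38.
Sec23a chr12:58959784-58959805: tgttttgcctgataCAGTATTa
Sec23a chr12:58959217-58959238: cccattgtgttcttCAGTATTt
Sec23a chr12:58959129-58959150: ggttcttactgagaCAGTATTa
Msn chrX:96167902-96167923: cttttaatttttacCAGTATTa
Msn chrX:96168093-96168114: atgtaagaagatttCAGTATTa
Cfl2 chr12:54860971-54860992: tataagaagcctgtCAGTATTg
Cfl2 chr12:54860748-54860769: tgggagacttgtttCAGTATTa
Cfl2 chr12:54860540-54860561: ttatcctagtatctCAGTGTTc
Suz12 chr11:80032288-80032309: ggattgggaacaggCAGTGTTc
Suz12 chr11:80033487-80033508: tgtgacttgtcatcCAGTATTa
Ets1 chr9:32754989-32755010: attaaattttgtgcCAGTATTt
Ets1 chr9:32755040-32755061: ctctaaggtggtctCAGTATTg
Ets1 chr9:32755048-32755069: tggtctcagtattgCAGTATTg
Matches followed by A were found in the 4 genes that were called and also in *Zeb1* (3), *Zeb2* (6) and *Wasf3* (2), which were not. In *Sec23a*, which fell, 2 of 3 matches were followed by A, and in *Msn*, which rose, both were. The last 2 matches of *Ets1* start 8 bases apart, so their windows overlap, and none of its 3 matches was followed by A. The *Zeb2* sites are shown for comparison, as the gene with the most matches whose sequence is given.
Zeb2 chr2:44988173-44988194: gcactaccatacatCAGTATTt
Zeb2 chr2:44988108-44988129: gcactacagtgcatCAGTATTa
Zeb2 chr2:44987746-44987767: tgaagcacccgtgtCAGTATTa
Zeb2 chr2:44987661-44987682: ttcattaattttgtCAGTATTa
Zeb2 chr2:44987527-44987548: catactgtagtgtaCAGTATTa
These 5 matches to miR-200b and miR-429 fall within the first part of the 4941-base 3′-UTR, and 4 of the 5 are followed by A.

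All 10 genes passed the filter on low values (at least 0.5 CPM in at least 2 samples) and were tested with the other genes, 12175 in all. On log2(CPM + 0.5), with limma and Benjamini-Hochberg adjustment over all genes tested and a call at an adjusted *p* under 0.05, *Sec23a* was downregulated in CAF-200 and *Msn*, *Cfl2* and *Suz12* were upregulated. The other 6 did not pass the threshold. Among all genes tested, 18.6% were called lower and 11.9% higher, so 1 lower and 3 higher of 10 is to be read against about 30.5% called in either direction. The study's stricter thresholds (adjusted *p* under 0.01, log2 fold-change above 1 or below -1) called 0 of the 10 genes, against 2.35% of all genes lower and 2.37% higher, 4.72% in all. At an unadjusted *p* under 0.05, 2 of the 10 were lower and 4 higher, against 44.9% of all genes in either direction. The fold-changes of 4 genes lay below 0, against 58.3% of all genes, and those of 6 above, and their median was 0.04 on the log2 scale against -0.09 over all genes tested. The CAF-vec and CAF-200 samples did not overlap for 8 of the 10 genes, against 61.6% of all genes. CAF-200 was the lower group for 3 of these (37.3% of all genes) and the higher group for 5 (24.3%).

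**Figure D2:**
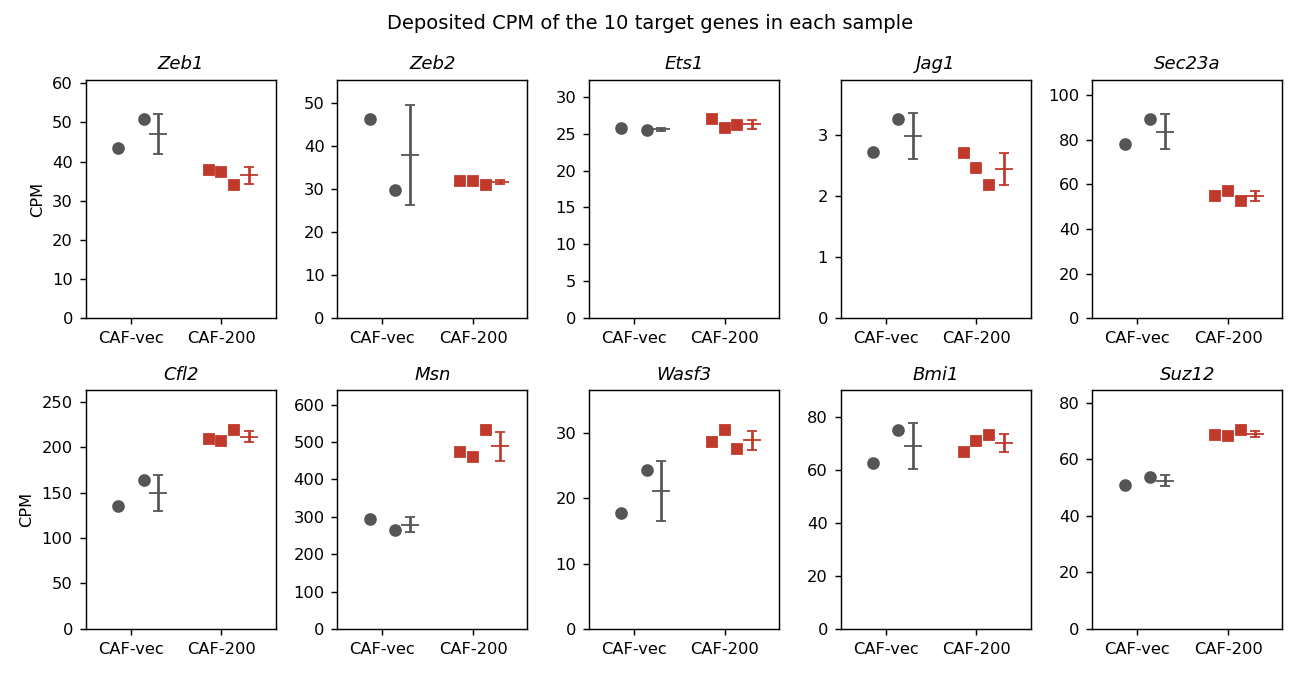
Deposited CPM of each gene in the 2 CAF-vec samples (grey circles) and the 3 CAF-200 samples (red squares), with the mean ± SD to the right of each group and every axis starting at 0. *Sec23a* is lower in all CAF-200 samples, *Msn*, *Cfl2* and *Suz12* are higher in all of them, and the CAF-vec samples of *Zeb2* lie on both sides of the CAF-200 samples.

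The ZEB factors come first, being zinc-finger repressors of epithelial genes and the targets by which miR-200 is best known. *Zeb1* (ENSMUSG00000024238) was at 43.5 and 50.7 CPM in CAF-vec and at 37.8, 37.5 and 34.1 CPM in CAF-200. All CAF-200 samples lay below both CAF-vec samples, with means of 47.1 ± 5.13 (SD, n = 2) and 36.4 ± 2.08 CPM (SD, n = 3). The log2 fold-change was -0.36 ± 0.107 (SE, 95% interval -0.63 to -0.099), and it just missed the threshold (limma, adjusted *p* = 0.0504). Its adjusted *p* ran from 0.00301 to 0.222 over 13 alternative settings and passed the threshold without CAF-vec 1 (0.00301) or without CAF-vec 2 (0.0308), where the spread comes from CAF-200 alone. Under quantile normalization the fold-change was -0.26, so the size of the difference for *Zeb1* depended on the scaling as well.

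*Zeb2* (ENSMUSG00000026872, chr2:44983632-45117395, minus strand, GRCm38) was at 46.2 and 29.8 CPM in CAF-vec and at 31.9, 31.8 and 31.1 CPM in CAF-200. The groups overlapped, since 1 CAF-vec sample lay above and the other below all CAF-200 samples, and the means were 38.0 ± 11.6 (SD, n = 2) and 31.6 ± 0.454 CPM (SD, n = 3). The log2 fold-change of -0.23 ± 0.186 (SE, 95% interval -0.69 to 0.23) did not pass the threshold (limma, adjusted *p* = 0.374). It was -0.12 under quantile normalization and -0.13 with centring on sample medians. CAF-vec 1 decided its direction. Without it the fold-change was 0.08 (adjusted *p* = 0.381), and without CAF-vec 2 it was -0.54 (adjusted *p* = 0.000377), with adjusted *p* between 0.000377 and 0.599 over the 13 alternatives (limma). The level of *Zeb1* per kilobase of exon was 1.83 and 3.31 times that of *Zeb2* in the CAF-vec samples and 2.30, 2.29 and 2.13 times in the CAF-200 samples, so the balance of the pair overlapped between the groups (exact permutation test, two-sided *p* = 0.8, where the smallest possible is 0.2).

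The genes whose values over the 5 samples were most like those of *Zeb1* were *Cdk2ap2*, *Cacnb1* and *Med17*, with root mean square differences of 0.0249, 0.0253 and 0.0253 on the centred log2 scale. For *Zeb2* they were *Gpd1l*, *Mindy1* and *Tgif2*, at 0.0162, 0.0182 and 0.0206. With 5 samples this is a description of these libraries only.

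Among genes known to be repressed by ZEB factors in epithelial cells, 19 of the 21 listed were too low to be tested and 4 of them were at 0 in every sample. *Cdh1*, which encodes the epithelial adhesion protein E-cadherin, was listed at 0 in CAF-vec 1 and CAF-vec 2, and the CAF-200 samples held 0.0404, 0.000153 and 0.0106 CPM. Of the 2 that were tested, *Llgl2*, a cell polarity gene, was at 9.32 and 7.43 CPM in CAF-vec and fell to 2.64, 2.30 and 4.27 CPM in CAF-200 (log2 fold-change -1.34 ± 0.254 SE, limma, adjusted *p* = 0.0149), a call lost without CAF-200 1 or CAF-200 2. *Esrp2*, an epithelial splicing factor, was at 0.240 and 0.660 CPM in CAF-vec and at 0.942, 1.1815 and 1.15 CPM in CAF-200, and its difference of 0.78 ± 0.231 (SE) on the log2 scale did not pass the threshold (limma, adjusted *p* = 0.0516), though it did with a pseudocount of 1, quantile normalization, centring, no variance trend and without CAF-vec 2. Of the 6 tested corepressors and chromatin enzymes that work with ZEB factors, 0 were called by limma and 1, *Ctbp1*, had an unadjusted *p* under 0.05 (log2 fold-change -0.65, limma, adjusted *p* = 0.0547), against 30.5% and 44.9% of all genes. Quantile normalization called 1 of the 6 lower, against 1893 of 12175 genes. The median log2 fold-change of the 6, -0.02, was 0.06 without CAF-vec 1 and -0.08 without CAF-vec 2, against -0.06 and -0.12 over all genes.

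*Ets1* (ENSMUSG00000032035, chr9:32636221-32757820, plus strand) encodes an ETS-family transcription factor that drives matrix-degrading and angiogenic genes in stromal cells. It was at 25.7 and 25.4 CPM in CAF-vec and at 26.9, 25.8 and 26.1 CPM in CAF-200. The CAF-200 samples lay above both CAF-vec samples by a narrow margin (log2 fold-change 0.04 ± 0.0811 SE, 95% interval -0.16 to 0.24, limma, adjusted *p* = 0.741). The fold-change was 0.14 under quantile normalization and 0.13 with centring on sample medians, so its closeness to 0 depended on the scaling. Its paralog *Ets2*, with 0 matches, was at 8.60 and 8.66 CPM in CAF-vec and at 8.85, 9.44 and 10.6 CPM in CAF-200 and was not called (log2 fold-change 0.15, limma, adjusted *p* = 0.351).

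*Jag1* (ENSMUSG00000027276, chr2:137081456-137116644, minus strand), which encodes a ligand of Notch receptors, was the lowest of the 10 genes. It was at 2.72 and 3.26 CPM in CAF-vec and at 2.71, 2.46 and 2.19 CPM in CAF-200, so the groups were separated by a margin that rounding nearly hides. The log2 fold-change was -0.24 ± 0.144 (SE, 95% interval -0.60 to 0.11) and did not pass the threshold (limma, adjusted *p* = 0.239). It was -0.35 without CAF-vec 1, -0.13 without CAF-vec 2 and -0.14 with centring on sample medians. The related ligand gene *Jag2*, also a reported target and with 1 CAGTATT match, was lower still, at 0.836 and 0.648 CPM in CAF-vec and 0.5005, 0.115 and 0.531 CPM in CAF-200 (log2 fold-change -0.53, limma, adjusted *p* = 0.188).

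*Sec23a* (ENSMUSG00000020986, chr12:58958383-59012017, minus strand) was the only one of the 10 genes called lower. It encodes an inner-layer subunit of the COPII coat, which carries newly made proteins such as collagen from the endoplasmic reticulum to the Golgi. It was at 78.3 and 89.1 CPM in CAF-vec and at 54.6, 57.2 and 52.4 CPM in CAF-200. Every CAF-200 sample was lower than both CAF-vec samples, with means of 83.7 ± 7.66 (SD, n = 2) and 54.8 ± 2.40 CPM (SD, n = 3), a ratio of 0.655. The log2 fold-change was -0.61 ± 0.0973 (SE, 95% interval -0.85 to -0.36, limma, adjusted *p* = 0.00964). Over the 13 alternatives it lay between -0.70 and -0.50 and its adjusted *p* between 0.000324 and 0.0638, and the call was lost without CAF-200 1 (0.0565), CAF-200 2 (0.0510) or CAF-200 3 (0.0622), each of which leaves 2 samples a group, and with the replicate number as a block (0.0638).

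The paralog *Sec23b*, which encodes the alternative form of the same subunit and holds 0 matches, was at 47.1 and 45.1 CPM in CAF-vec and at 47.1, 48.9 and 47.2 CPM in CAF-200 (log2 fold-change 0.05, limma, adjusted *p* = 0.651). The level of *Sec23a* per kilobase of exon was 2.17 and 2.57 times that of *Sec23b* in CAF-vec and 1.51, 1.52 and 1.45 times in CAF-200, a difference of -0.66 on the log2 scale without overlap (exact permutation test, two-sided *p* = 0.2, the smallest this design allows). Of the other 11 COPII genes tested, *Sec23b* among them, 2 were called lower and 0 higher, with a median log2 fold-change of -0.19, against 18.6% of all genes called lower and a median of -0.09. *Sec24c*, which encodes a cargo-binding subunit, was at 84.3 and 66.8 CPM in CAF-vec and fell to 42.1, 40.6 and 44.7 CPM in CAF-200 (log2 fold-change -0.82 ± 0.124 SE, limma, adjusted *p* = 0.00866). *Sec16a*, the scaffold of exit sites on the endoplasmic reticulum, fell by 0.51 on the log2 scale (limma, adjusted *p* = 0.0154). Neither held a CAGTATT or CAGTGTT match in its longest 3′-UTR. Without CAF-200 2, 0 of the 11 genes were called (limma, 2 at an unadjusted *p* under 0.05), and without CAF-200 1 or CAF-200 3, 1 was called lower. Over all genes the lower calls dropped too, to 724, 581 and 485 without CAF-200 1, 2 and 3. The median of the 11 was -0.22 without CAF-vec 1 and -0.0015 without CAF-vec 2, against -0.06 and -0.12 over all genes.

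The 3 genes that act on actin all had fold-changes above 0. *Msn* (ENSMUSG00000031207, chrX:96096042-96168552, plus strand) encodes moesin, which ties actin filaments to the plasma membrane. It was at 292.8 and 265.6 CPM in CAF-vec and at 474.3, 458.8 and 531.6 CPM in CAF-200. All CAF-200 samples were far above both CAF-vec samples, with means of 279.2 ± 19.2 (SD, n = 2) and 488.2 ± 38.3 CPM (SD, n = 3), a ratio of 1.75. The log2 fold-change of 0.80 ± 0.113 (SE, 95% interval 0.52 to 1.08, limma, adjusted *p* = 0.00737) had the greatest size among the 10 genes. Its adjusted *p* stayed under 0.05 without any 1 sample and lay between 0.000275 and 0.0540 over the 13 alternatives, the last being the fit with the replicate number as a block.

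The other genes of the ezrin, radixin and moesin family were not called. *Rdx* held 1 CAGTGTT match and *Ezr* held neither motif. *Rdx*, for radixin, was at 113.6 and 89.0 CPM in CAF-vec and at 98.5, 95.5 and 101.8 CPM in CAF-200, and *Ezr*, for ezrin, was at 27.7 and 17.8 against 20.9, 20.4 and 21.7 CPM. Both overlapped between the groups and neither was called (log2 fold-changes -0.03 and -0.08, limma, adjusted *p* = 0.871 and 0.758). Per kilobase of exon, *Msn* was at 1.89 and 2.19 times *Rdx* in CAF-vec and at 3.53, 3.52 and 3.83 times in CAF-200, and at 5.50 and 7.75 times *Ezr* in CAF-vec and 11.8, 11.7 and 12.7 times in CAF-200. The ratios did not overlap between the groups, each with the smallest *p* that the design allows (exact permutation test, two-sided *p* = 0.2).

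*Cfl2* (ENSMUSG00000062929, chr12:54858809-54862877, minus strand) encodes cofilin-2, the muscle-type member of the cofilins, which sever actin filaments. It was at 135.3 and 163.4 CPM in CAF-vec and at 208.9, 207.0 and 218.8 CPM in CAF-200. All CAF-200 samples were higher, with means of 149.4 ± 19.9 (SD, n = 2) and 211.6 ± 6.32 CPM (SD, n = 3) and a log2 fold-change of 0.51 ± 0.111 (SE, 95% interval 0.23 to 0.78, limma, adjusted *p* = 0.0221). The call was lost without CAF-200 1 (0.0917), CAF-200 2 (0.0906) or CAF-200 3 (0.107) and with the replicate block (0.121), within a range of 0.000112 to 0.121 over the 13 alternatives. Its paralogs, which hold 0 matches, also lay above CAF-vec in every CAF-200 sample. *Dstn*, for destrin, was at 258.2 and 234.1 CPM in CAF-vec and rose to 340.6, 334.0 and 353.2 CPM in CAF-200 (log2 fold-change 0.48 ± 0.0955 SE, limma, adjusted *p* = 0.0172, a call lost without any 1 CAF-200 sample), while *Cfl1*, the common cofilin, at 1656 and 1446 CPM against 1915, 1713 and 2055 CPM, was not called (log2 fold-change 0.29, limma, adjusted *p* = 0.179). The ratios of *Cfl2* to *Cfl1* and to *Dstn* per kilobase of exon overlapped between the groups, at 0.0711 and 0.0984 in CAF-vec against 0.0950, 0.105 and 0.0927 in CAF-200 for the first, and at 0.307 and 0.408 against 0.359, 0.363 and 0.362 for the second.

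*Wasf3* (ENSMUSG00000029636, chr5:146384985-146473615, plus strand) encodes WAVE3, which activates the actin-nucleating ARP2/3 complex at the leading edge of migrating cells. It was at 17.8 and 24.3 CPM in CAF-vec and at 28.6, 30.4 and 27.6 CPM in CAF-200. The CAF-200 samples all lay above CAF-vec, but the 2 CAF-vec samples stood 0.44 apart on the log2 scale, and the log2 fold-change of 0.46 ± 0.147 (SE, 95% interval 0.10 to 0.83) did not pass the threshold (limma, adjusted *p* = 0.0615). It passed under quantile normalization (0.0449), without CAF-vec 1 (0.0451) and without CAF-vec 2 (0.000285), within a range of 0.000285 to 0.188 over the 13 alternatives. The size of the difference hung on the CAF-vec samples, since the log2 fold-change was 0.24 without CAF-vec 1 and 0.68 without CAF-vec 2. *Wasf1* and *Wasf2*, with 0 matches each, were not called (log2 fold-changes 0.13 and -0.03, limma, adjusted *p* = 0.363 and 0.855). Per kilobase of exon *Wasf3* was at 0.418 and 0.469 times *Wasf2* in CAF-vec and at 0.636, 0.662 and 0.583 times in CAF-200, without overlap. Of the 15 other genes of the WAVE and ARP2/3 complexes tested, 0 were called by limma and 2 had an unadjusted *p* under 0.05, 1 in each direction, against 30.5% and 44.9% of all genes. The median log2 fold-change of the 15 was 0.02. It was -0.01 without CAF-vec 1 and 0.07 without CAF-vec 2, against -0.06 and -0.12 over all genes.

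**Figure D3:**
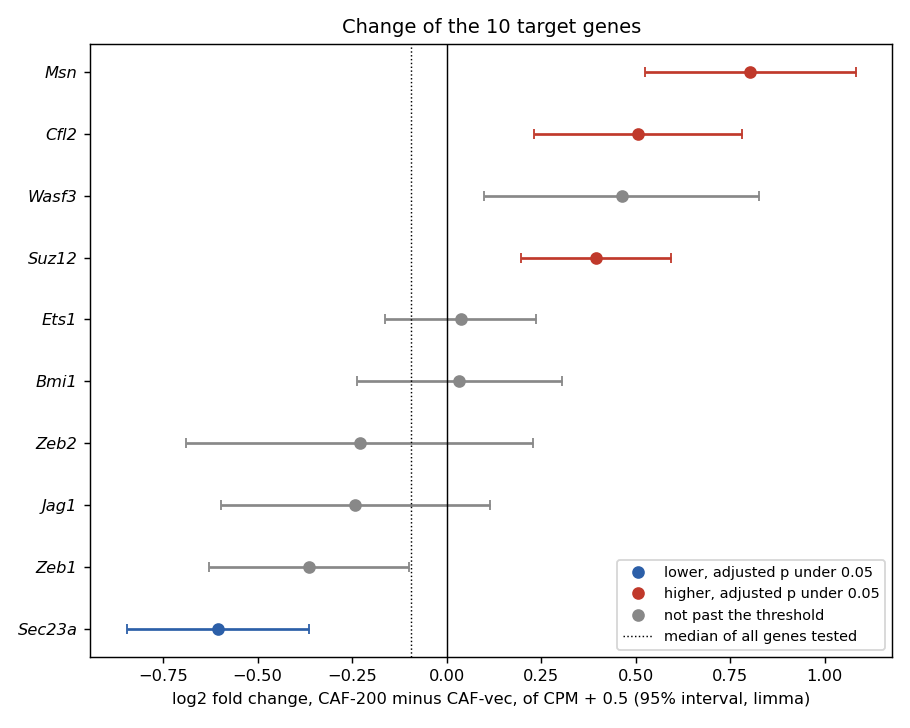
Log2 fold-change of each gene (CAF-200 minus CAF-vec, on CPM + 0.5) with its 95% interval from limma, in order of size. Blue marks a gene called lower, red a gene called higher and grey a gene not called, and the dotted line is the median of all genes tested (-0.09). The values run from -0.61 for *Sec23a* to 0.80 for *Msn*.

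The last pair belongs to the Polycomb system, which keeps genes silent through marks on histones. *Suz12* (ENSMUSG00000017548, chr11:79993106-80034123, plus strand) encodes a core subunit of Polycomb repressive complex 2, which methylates histone H3. It was at 51.0 and 53.8 CPM in CAF-vec and at 68.7, 68.2 and 70.3 CPM in CAF-200. The CAF-200 samples were all higher and the samples of each group lay close together, with means of 52.4 ± 1.95 (SD, n = 2) and 69.1 ± 1.10 CPM (SD, n = 3). The log2 fold-change was 0.40 ± 0.0799 (SE, 95% interval 0.20 to 0.59, limma, adjusted *p* = 0.0177). The call was lost without CAF-200 1 (0.0925), CAF-200 2 (0.0894) or CAF-200 3 (0.09999) and with the replicate block (0.147), within a range of 0.000792 to 0.147 over the 13 alternatives.

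*Bmi1* (ENSMUSG00000026739, chr2:18677018-18686629, plus strand) encodes PCGF4, a subunit of Polycomb repressive complex 1 that supports the self-renewal of stem cells. It was at 62.7 and 75.0 CPM in CAF-vec and at 66.6, 70.9 and 73.3 CPM in CAF-200. All CAF-200 samples lay between the CAF-vec samples, and the log2 fold-change of 0.03 ± 0.109 (SE, 95% interval -0.24 to 0.30, limma, adjusted *p* = 0.825) changed sign without CAF-vec 1, to -0.09. It was 0.13 under both quantile normalization and centring on sample medians. Of its 5 paralogs 0 were called, against 30.5% of all genes tested, a share that 5 genes cannot be told apart from. *Pcgf3* held 1 CAGTATT and 2 CAGTGTT matches, *Pcgf5* held 1 CAGTGTT match, and the other 3 held neither. *Pcgf1*, *Pcgf2* and *Pcgf5* had log2 fold-changes of -0.40, -0.12 and -0.35, and *Pcgf3* and *Pcgf6* of 0.16 and 0.09, with adjusted *p* from 0.0594 for *Pcgf1* to 0.694 for *Pcgf2* (limma).

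Among the 24 other Polycomb genes, 3 were called lower and 3 higher, with a median log2 fold-change of -0.08, against 18.6% lower, 11.9% higher and a median of -0.09 over all genes tested. *Ezh2*, the methyltransferase, was at 85.1 and 72.5 CPM in CAF-vec and rose to 157.8, 131.2 and 149.7 CPM in CAF-200 (log2 fold-change 0.89 ± 0.123 SE, limma, adjusted *p* = 0.00720). *Eed*, which binds the methylated histone, was at 33.4 and 39.2 CPM in CAF-vec and rose to 61.5, 50.5 and 61.7 CPM (log2 fold-change 0.67 ± 0.132 SE, limma, adjusted *p* = 0.0167). *Rbbp7*, a histone-binding subunit named after its value was seen, rose by a log2 fold-change of 0.44 (limma, adjusted *p* = 0.0176). Other genes whose products join SUZ12 in the complex were not called, with log2 fold-changes of -0.58 for *Jarid2*, -0.26 for *Ezh1*, -0.10 for *Phf19*, 0.10 for *Mtf2*, 0.13 for *Aebp2* and 0.33 for *Rbbp4*. None of *Ezh2*, *Eed* and *Rbbp7* held a CAGTATT or CAGTGTT match in the longest 3′-UTR. The genes that fell, *Cbx8* (log2 fold-change -0.99, adjusted *p* = 0.0411), *Cbx6* (-0.47, 0.0132) and *Cbx7* (-0.45, 0.0416, all limma), encode chromodomain proteins of the first complex. *Cbx6* held 2 CAGTGTT matches and *Cbx7* 1, and *Cbx8* held neither motif. Per kilobase of exon the ratio of *Suz12* to *Ezh2* was 0.810 and 1.00 in CAF-vec and 0.588, 0.701 and 0.634 in CAF-200, lower in every CAF-200 sample. The ratio of *Suz12* to *Eed* was 1.1814 and 1.06 in CAF-vec and 0.866, 1.04 and 0.881 in CAF-200, also without overlap (exact permutation test, two-sided *p* = 0.2 for both). Without any 1 CAF-200 sample, 0 of the 24 genes were called lower by limma and 1 or 2 higher, with 7 to 11 at an unadjusted *p* under 0.05, while calls over all genes dropped to between 485 and 724 lower and 435 and 536 higher. The median of the 24 was -0.10 without CAF-vec 1 and 0.06 without CAF-vec 2, against -0.06 and -0.12 over all genes. With centring on sample medians 2 of the 24 were lower and 5 higher, against 1756 lower and 1872 higher of 12175 genes.

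**Figure D4:**
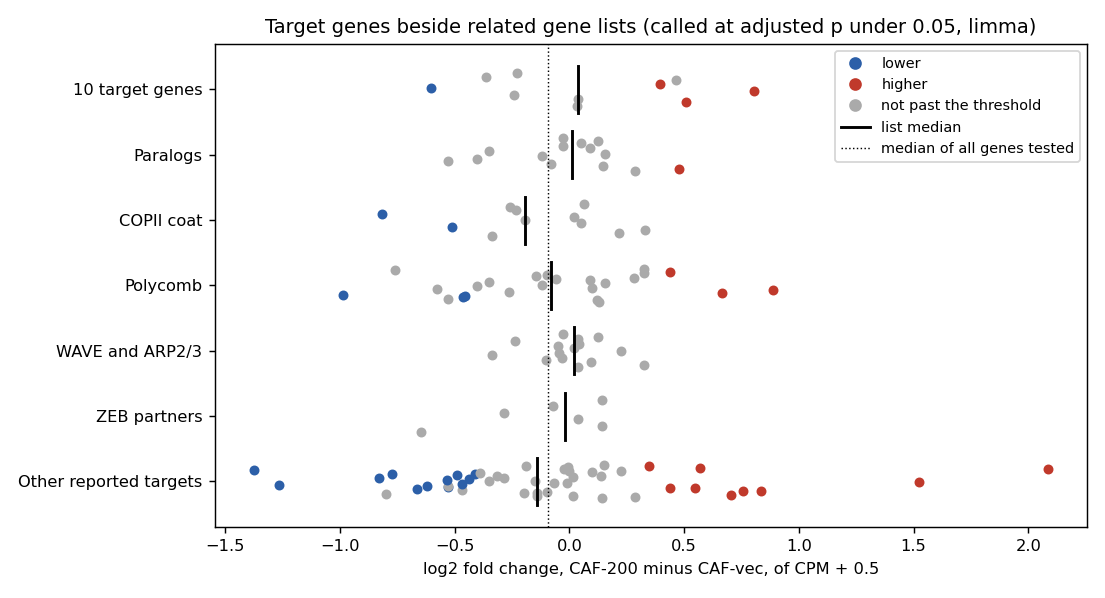
Log2 fold-change (CAF-200 minus CAF-vec) of every tested gene of each list, 1 point a gene, blue where called lower and red where called higher by limma at an adjusted *p* under 0.05. Black bars are list medians and the dotted line the median of all genes tested. The 10 genes (median 0.04) spread over both directions, as do the other reported targets (median -0.14).

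Levels between the 10 genes were compared per kilobase of exon. In CAF-vec the order of mean CPM per kilobase was *Cfl2* (45.7 ± 6.08, SD, n = 2), *Msn* (44.1 ± 3.04), *Bmi1* (17.3 ± 2.18), *Sec23a* (17.3 ± 1.58), *Suz12* (10.6 ± 0.394), *Zeb1* (4.59 ± 0.4996), *Wasf3* (4.05 ± 0.883), *Ets1* (3.02 ± 0.0242), *Zeb2* (1.91 ± 0.582) and *Jag1* (0.514 ± 0.0652). The neighbours *Cfl2* and *Msn*, *Bmi1* and *Sec23a*, and *Zeb1* and *Wasf3* differed by less than their spread. In CAF-200 *Msn* stood first at 77.2 ± 6.06 (SD, n = 3), above *Cfl2* at 64.8 ± 1.93, *Suz12* at 13.97 ± 0.222 stood above *Sec23a* at 11.3 ± 0.496, and *Wasf3* at 5.56 ± 0.274 stood above *Zeb1* at 3.55 ± 0.202.

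The number of matches did not order the 10 genes by their change. From the lowest up, the 4 genes with fold-changes below 0, *Sec23a*, *Zeb1*, *Jag1* and *Zeb2*, held 3, 5, 0 and 5 CAGTATT matches. Counting both classes they held 3, 9, 0 and 9, so the 2 genes with the most matches both lay below 0. From the highest down, the 6 above 0, *Msn*, *Cfl2*, *Wasf3*, *Suz12*, *Ets1* and *Bmi1*, held 2, 2, 3, 1, 3 and 1 CAGTATT matches, and 2, 3, 3, 2, 3 and 1 of both classes. Over all genes tested, the median log2 fold-change was -0.10 for the 10157 genes with 0 CAGTATT matches, -0.05 for the 1551 with 1, about 0 for the 277 with 2 and -0.05 for the 70 with 3 or more. The share called lower was 18.9%, 18.1%, 16.2% and 12.9% in that order, and the share called higher 12.0%, 11.5%, 12.6% and 8.57%. The group with 0 CAGTATT matches includes 1749 genes that held CAGTGTT. These groups differ in the length of their 3′-UTRs, with medians of 990 bases for 0 matches and 4993 bases for 3 or more, and the part of this in the values was not tested.

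**Figure D5:**
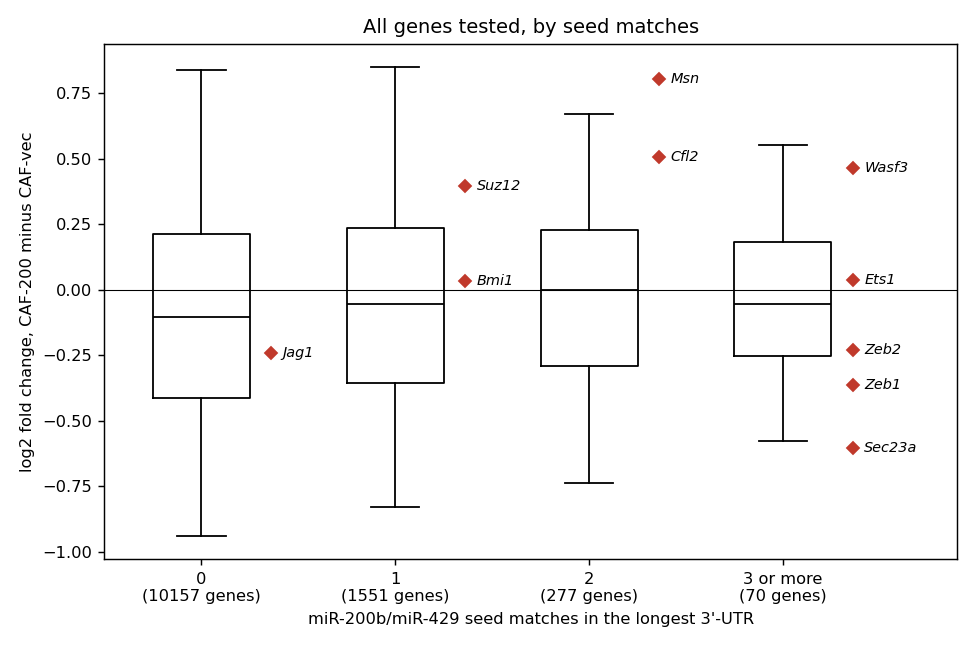
Log2 fold-change (CAF-200 minus CAF-vec) of all tested genes with an annotated 3′-UTR, grouped by CAGTATT matches in the longest 3′-UTR. Boxes show the quartiles and median, whiskers the 5th and 95th percentiles, and red diamonds the 10 genes beside their group. The medians lie near 0 in every group, and with 3 or more matches the genes run from *Sec23a* (-0.61) to *Wasf3* (0.46).

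A further 48 genes reported as miR-200 targets were listed, of which 47 were tested, 12 were called lower and 9 higher, with a median log2 fold-change of -0.14, against 18.6% lower, 11.9% higher and a median of -0.09 over all genes tested. This list includes *Nrp2*, which the study picked out through these samples, so for that gene it is not independent evidence of a direction. The most changed were *Tubb3*, a neuronal tubulin, at 4.38 and 3.70 CPM in CAF-vec and 19.0, 19.1 and 18.0 CPM in CAF-200 (log2 fold-change 2.09), and *Loxl3*, a lysyl oxidase, at 107.1 and 77.1 against 263.9, 245.3 and 279.6 CPM (1.53). *Tgfb2*, a TGF-β ligand, fell by 1.37 on the log2 scale, *Kdr*, the receptor VEGFR2, fell by 1.26, and *Errfi1*, an inhibitor of EGF receptor signaling, rose by 0.84. Their adjusted *p* lay between 0.00105 and 0.00812 (limma). Without any 1 CAF-200 sample, 4 or 5 of the 47 genes were called lower and 3 to 6 higher. Calls over all genes dropped to between 485 and 724 lower and 435 and 536 higher in those fits. The median of the 47 was -0.14 without CAF-vec 1 and -0.12 without CAF-vec 2, against -0.06 and -0.12 over all genes.

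The libraries had most of the markers of fibroblasts, though some were low in CAF-vec. Of 11 fibroblast markers 10 were tested, with *Col1a1* at 1543 to 4613 CPM, while *Fap* was not tested, at 0.0684 to 0.391 CPM. *Lum*, *Dcn*, *Acta2* and *Thy1* were called higher in CAF-200 (log2 fold-changes 2.82, 2.75, 2.63 and 1.46) and 0 were called lower (limma), against 11.9% and 18.6% of all genes. In CAF-vec, *Lum* was at 3.24 and 4.02 CPM, *Dcn* at 7.67 and 8.18, *Acta2* at 92.8 and 125.7 and *Thy1* at 85.3 and 110.8. *Col3a1*, at 1.02, was not called, and 5 of the 10 had fold-changes below 0 and 2 of these an unadjusted *p* under 0.05. The 5 were *Col1a1* (-0.91 on the log2 scale), *Col1a2* (-0.75), *Vim* (-0.39), *Pdgfrb* (-0.25) and *Pdgfra* (-0.20). For the first 3 the CAF-vec samples stood far apart, with *Col1a1* at 4613 and 2003 CPM, *Col1a2* at 5185 and 2567 CPM and *Vim* at 3847 and 2418 CPM, against 1543 to 1719, 2048 to 2284 and 2085 to 2564 CPM in CAF-200. Summed over 8 epithelial markers the CAF-vec samples held 0.0843 and 0.388 CPM and the CAF-200 samples between 0.0346 and 0.583 CPM, with 3 of them at 0 in every sample. For 6 endothelial markers, 3 of them at 0 throughout, it was 0.857 and 0.0583 against 0.132 to 0.366 CPM. Summed over 7 leukocyte markers, 2 of them at 0 throughout, it was 8.38 and 9.41 against 12.2 to 12.8 CPM. Of the 3 leukocyte markers tested, *Lyz2* was called higher, at 1.11 and 1.99 CPM in CAF-vec against 7.48, 7.16 and 6.48 CPM in CAF-200 (log2 fold-change 1.91, limma, adjusted *p* = 0.00395), while *Cd68* and *Csf1r* had log2 fold-changes of -0.14 and -0.46 and were not called. The part of *Lyz2* in the values of the 10 genes was not tested. The 2 CAF-vec samples differed from each other by an SD of 0.490 in log2 values over the genes tested, against 0.192 to 0.204 between CAF-200 samples, and this wider spread touched *Zeb2* (0.62 apart), *Wasf3*, *Cfl2* and *Bmi1* most among the 10 genes. Genes at 0 in some but not all samples of a group numbered 1205 in CAF-vec and 0 in CAF-200. How the values were adjusted before deposit is unknown, and the part of this in the narrow CAF-200 spread, and so in the *p* values, was not tested.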

How the data were processed

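RNA of CAF-vec (2 samples) and CAF-200 (3 samples) was sequenced from stranded, paired-end libraries of mRNA. Expression values were deposited as CPM, which the authors had normalized (the name of the table refers to TMM). The submitters' processing notes name FastQC, cutadapt, Trimmomatic, STAR, RSEM and edgeR, without versions, and the builds GRCm38 and mm10. Columns summed to between 999956 and 1000111 CPM, all 5 sample columns were used, and 0 were left out. Whole reads could not be recovered (2975 values above 0 lay under 0.005 CPM), so no count test was run and the depth is unknown.

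A pseudocount of 0.5 was added to the CPM before taking log2, and R 4.3.3 with limma 3.58.1 (lmFit, eBayes with a variance trend) tested the 12175 genes that reached 0.5 CPM in 2 samples or more, adjusting by Benjamini-Hochberg. The pseudocount understates the change of low genes. The fit was checked on simulated data. The 10 genes and all gene lists were chosen with earlier results of these data known, the lists from general knowledge of each pathway.

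Genes named are the 10, their paralogs, up to 5 called genes with the largest fold-changes of each list, and the 3 genes nearest to *Zeb1* and to *Zeb2* over the 5 samples. *Ctbp1*, *Esrp2*, *Cdh1*, *Rbbp7*, *Jarid2*, *Ezh1*, *Phf19*, *Mtf2*, *Aebp2*, *Rbbp4* and *Nrp2* are named besides, chosen after their values were seen. Cell type markers are named too. 3′-UTRs and coordinates are from GENCODE M21 and miRNAs from RefSeq. Lengths are merged exons. Alternatives were pseudocounts of 1 and 0.1, the low-value filter dropped or raised to 1 CPM throughout, centring on sample medians, quantile normalization, no variance trend, the replicate number as a block, each sample left out, and every annotated 3′-UTR. Tables and figures were made in Python 3.11.15 (matplotlib 3.10.9, SciPy 1.17.1, numpy 2.4.6, pandas 2.3.3).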

Additional observations from a re-analysis of the deposited data

How the results depend on the processing

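The count of the 10 genes called lower was 1 and ran from 0 to 3 when 1 sample was left out, and the count called higher was 3 and ran from 1 to 4. Without any 1 CAF-200 sample 0 genes were called lower by limma (1 to 2 at an unadjusted *p* under 0.05) and *Msn* alone was called higher, while calls over all genes dropped to 724 lower and 536 higher, 581 and 503, and 485 and 435 without CAF-200 1, 2 and 3. Without CAF-vec 1 or CAF-vec 2 the counts were 2 and 3 lower and 4 higher each, the lone sample being assumed to vary like CAF-200, and calls over all genes rose to 3223 lower and 2455 higher, and 4760 lower and 3039 higher, from 2265 and 1446. In a fit with a replicate block, that is, a term for the sample number, 0 of the 10 were called lower and 0 higher (limma, 1 and 4 at an unadjusted *p* under 0.05), and 852 and 630 of all genes were. The same fit called 0 Polycomb genes lower and 1 higher, 5 and 4 of the other reported targets, and 1 and 0 of the COPII genes. It called 0 of the paralogs, so the call of *Dstn* was lost there too. Samples that share a number correlated in their deviations at 0.25 and 0.13, and CAF-vec 2 and CAF-200 3, which do not, at 0.12. The deviations of the 2 CAF-vec samples mirror each other, so their signs are tied. With only 2 pairs and no label that ties them, the samples of a pair share only a number. With 1 sample left out the log2 fold-change of *Zeb2* ran from -0.54 to 0.083 and that of *Bmi1* from -0.094 to 0.16, both turning sign without CAF-vec 1, and the other 8 genes kept their sign under all 13 alternatives. Quantile normalization and centring moved the median of all genes from -0.09 to -0.02 and 0.0027 and the calls to 1893 lower and 1786 higher, and 1756 lower and 1872 higher, while the 10 genes gave 1 lower and 4 higher, and 1 lower and 3 higher. The median of the Polycomb genes turned from -0.08 to 0.02 with centring and that of the ZEB partners from -0.02 to 0.07 and 0.08. At the study's thresholds 0 of the 10 genes were called under every alternative, and 9 held a match in any annotated 3′-UTR. Depth is unknown, so counting error could not be given.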
